A study of Bos taurus with 15 samples.

Results

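The transcripts described here are 6 messenger RNAs of the mitochondrial genome in lactating bovine mammary tissue, namely ND1, CYTB, COX1, COX2, COX3 and ATP6. They were chosen by name and not by their values, as 6 of the 24616 gene identifiers in a table of normalized counts: ENSBTAG00000043558 (ND1), ENSBTAG00000043550 (CYTB), ENSBTAG00000043561 (COX1), ENSBTAG00000043556 (COX2), ENSBTAG00000043560 (COX3) and ENSBTAG00000043584 (ATP6). The table pairs no identifier with a name, and 0 of its identifiers matched the RefSeq gene table for cattle (assembly ARS-UCD2.0), so the names are those with which the identifiers were chosen. RefSeq lists 37 genes on the bovine mitochondrial chromosome, of which 13 are protein-coding, and each of the 6 names occurs there once. The 6 rows stand in the table in the order that these genes have on that chromosome.

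The tissue came from 4 non-pregnant Holstein cows in their second lactation, 40 to 64 days in milk, and each was injected once with the synthetic glucocorticoid dexamethasone (DEX, 40 mg, intramuscular). Needle biopsies were taken immediately before the injection (0 h) and at 12, 24 and 72 h after it, and every cow also received prophylactic ampicillin. The question put by the study was how the mammary transcriptome changed over time after DEX. The 4 glands of the udder (QTR) were biopsied in turn, 1 for each time point and in the same order in every cow, and all cows received DEX, so time after DEX, QTR and earlier biopsies cannot be told apart. DEX was given in the evening, so only the 12 h biopsies fell in the morning, and time of day at 12 h cannot be told apart either. The groups compared are cows 2, 3 and 4, each with libraries of all 4 time points (n = 3 per time point). Cow 1 has libraries at 0, 12 and 24 h and was taken as the cow that the study left out, because it alone has no 72 h library, and its values are given beside the others. The study states that the cow it left out had stopped ruminating by 24 h, later passed blood in its faeces and was removed. The tissue could not be checked against marker genes, since the identifiers could not be matched to names.

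Mitochondrial DNA is transcribed into long precursor RNAs that are cut apart, mostly at the transfer RNAs between the genes, and the resulting messenger RNAs receive short poly(A) tails. The 6 messenger RNAs are all read from the same strand and encode core parts of the oxidative phosphorylation machinery, which supplies the ATP that a lactating epithelium spends on making lactose, protein and fat. ND1 is a subunit of complex I (NADH dehydrogenase), CYTB is the cytochrome b of complex III, COX1, COX2 and COX3 form the core of complex IV (cytochrome c oxidase), and ATP6 is part of the proton channel of the ATP synthase. ATP6 and COX3 are neighbours on the chromosome.

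The 15 libraries were made by 3′ tag RNA-seq, which reads 1 fragment near the poly(A) tail of an RNA, and held 1804120 to 6228132 gene reads each. The 6 transcripts were among the 20 most abundant genes, ranked between 6 and 20 in every library, and had 7634 to 129681 reads each per library, so counting error was small against the spread between cows. The 2 most abundant genes of a library took 47.2 to 54.4% of its reads. Normalized counts are CPM (reads per 1000000 gene reads) divided by a scaling factor that the authors set for each library. A larger factor therefore gives lower normalized counts. That factor was 0.797 in cow 1 at 0 h, 1.237 in cow 1 at 24 h and 1.279 in cow 4 at 72 h, the libraries farthest from the rest, and 0.875 to 1.137 in the other 12. In bulk tissue, fewer cells of a type and less RNA per cell cannot be told apart.

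The 6 transcripts moved in parallel over the time course. In cows 2 to 4 the mean normalized count of each of them was highest at 24 h, followed by 0 h, 12 h and 72 h, and the means of the share of reads stood in the same order. None of the 6 differed past the threshold between any pair of time points in the limma model across all genes. Count-based models called 4 to 6 of them lower at 72 h than at 24 h, where 3.12 to 6.52% of all genes tested were called lower. The quantity that stood lowest was the 72 h level, at 6462 ± 998 normalized counts for COX1 (SD, n = 3) against 11371 ± 1679 at 24 h and 9919 ± 921 at 0 h.

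ND1, the complex I subunit, had 5887, 4804 and 7209 normalized counts in cows 2, 3 and 4 at 0 h. It had 4252, 4906 and 6989 at 12 h, and 6736, 5063 and 8416 at 24 h. At 72 h it had 4083, 3828 and 4514. All 3 cows were lower at 72 h than the lowest cow at 0 h or 24 h. Cow 4 was the highest at each time point. Cow 1 had 6077, 5681 and 5756 normalized counts at 0, 12 and 24 h, which were 0.484, 0.533 and 0.712% of its gene reads.

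CYTB, the only member here of complex III, had 12097, 8749 and 14837 normalized counts in cows 2, 3 and 4 at 0 h and 7536, 8677 and 13350 at 12 h. It had 11879, 8942 and 16565 at 24 h, and 7445, 6562 and 6649 at 72 h. The cows differed widely at the first 3 time points and lay close together at 72 h, below every cow at the other time points. Cow 1 had 11866, 11045 and 10405 at 0, 12 and 24 h.

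COX1, the catalytic subunit of complex IV, had 9721, 9113 and 10922 normalized counts in cows 2, 3 and 4 at 0 h and 7681, 8400 and 10911 at 12 h. It had 11464, 9647 and 13000 at 24 h, and 6871, 7190 and 5324 at 72 h. Each cow was lowest at 72 h, without overlap with any other time point. Cow 4 went from the highest of the 3 cows at 24 h to the lowest at 72 h. Cow 1 had 7688, 8417 and 6985 at 0, 12 and 24 h, below all 3 other cows at 0 h and 24 h.

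COX2, which takes electrons from cytochrome c, had 3844, 3637 and 4419 normalized counts in cows 2, 3 and 4 at 0 h and 3090, 3186 and 4734 at 12 h. It had 4384, 3731 and 5598 at 24 h, and 3219, 3125 and 2932 at 72 h. The 72 h values overlapped those at 12 h and lay below those at 0 h and 24 h. COX3, the third core subunit of the complex, had 7438, 5963 and 8932 before DEX and 5053, 5572 and 7709 by 12 h. It had 7977, 6233 and 9911 at 24 h, and 5107, 4674 and 4655 at 72 h. Its 72 h values also overlapped those at 12 h alone. In cow 1, COX2 had 3469, 3631 and 3082 normalized counts and COX3 had 7025, 6435 and 6691 at 0, 12 and 24 h.

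ATP6, of the ATP synthase, had 20211, 10084 and 14778 normalized counts in cows 2, 3 and 4 at 0 h and 14743, 9169 and 14071 at 12 h. It had 23789, 11090 and 17831 at 24 h, and 14155, 7984 and 9295 at 72 h. The time points overlapped in every comparison. In those with 72 h this was because cow 2 at 72 h was above cow 3 at any time. Within each of the 3 cows the 72 h value was still the lowest. Cow 1 had 12089, 11805 and 11022 at 0, 12 and 24 h.

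**Figure D1:**
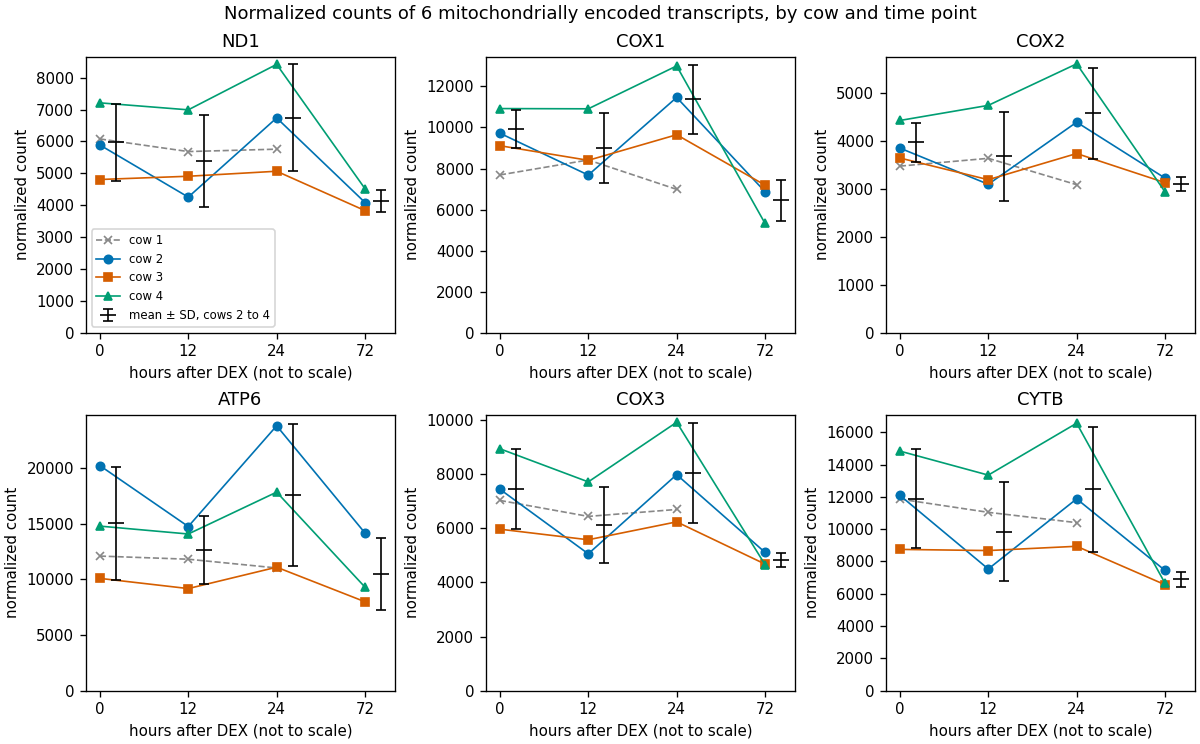
Normalized counts (vertical axes, from 0) of the 6 transcripts at 0, 12, 24 and 72 h after DEX, with 1 line per cow and the mean ± SD of cows 2 to 4 beside each time point. In cows 2 to 4 the 24 h mean is the highest and the 72 h mean the lowest for all 6, and cow 1 (dashed) has no 72 h value.

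At 12 h after DEX the 6 transcripts were slightly lower than at 0 h on average, and none passed the test. In the limma model (log2(normalized count + 0.5), adjusted over 13525 genes), 0 of 6 were called, against 3.88% of all genes tested, and 0 had an unadjusted p under 0.05. The log2 fold changes ran from -0.29 (COX3) to -0.14 (COX2), with adjusted p between 0.682 and 0.864 by limma. The 95% interval for COX3 went from -0.86 to 0.28. COX1, COX3, CYTB and ATP6 were lower in each of 3 cows, as were 12.7% of all genes and 40.5% of the 37 genes that averaged at least 1000 normalized counts, a set that holds the 6 transcripts themselves. Of the 31 others in that set, 11 were lower in each cow. The difference was widest in cow 2 for each of the 6, with a log2 ratio of -0.68 for CYTB against -0.01 in cow 3 and -0.15 in cow 4. With quantile normalization the COX3 log2 fold change was 0.012, while those of the other 5 stayed negative under all alternatives run. edgeR, DESeq2 and limma-voom called 0 of the 6, where they called 6.71%, 4.38% and 8.51% of the genes tested.

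At 24 h the transcripts were slightly higher than at 0 h on average, again with none past the threshold. The limma model called 0 of 6, against 2.31% of all genes, with 0 at an unadjusted p under 0.05. The log2 fold changes lay between 0.05 (CYTB) and 0.21 (ATP6), and the 95% interval for ATP6 went from -0.59 to 1.02. The correlation within cows in this model was near 0 (0.0179), so its intervals hold the differences in level between cows. Within cows the ATP6 log2 ratios were 0.24, 0.14 and 0.27, and with cow as a fixed term its interval went from -0.31 to 0.74. CYTB was lower at 24 h in cow 2, and the other 5 were higher in each of 3 cows, as were 14.1% of all genes and 51.4% of the 37 abundant ones. The median fold change of the 6, at 0.18, was the same to this precision as that of the 31 other abundant genes. Quantile normalization turned the direction of CYTB (-0.10) and ND1 (-0.0067), scaling to totals without the 20 most abundant genes turned that of CYTB (-0.11) and COX3 (-0.056), and adding cow 1 turned that of CYTB (-0.0063). In cow 1 all 6 normalized counts were lower at 24 h than at 0 h, with a log2 ratio of -0.19 for CYTB. As shares of reads, without the scaling factor, all 6 were higher at 24 h in cow 1, with a log2 ratio of 0.445 for CYTB. edgeR, DESeq2 and limma-voom called 0 of the 6, where they called 4.66%, 3.09% and 5.39% of the genes tested.

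Between 12 h and 24 h all 6 transcripts were higher at 24 h in each of 3 cows. The same held for 13.9% of all genes, and for 51.4% of the 37 abundant ones (13 of the 31 that are not among the 6). The log2 fold changes lay between 0.32 (COX2) and 0.44 (ATP6), with a median of 0.34 against 0.15 for the 31 other abundant genes, and they stayed positive under all 17 alternatives. By limma, 0 of 6 passed, against 0.702% of all genes, with 0 at an unadjusted p under 0.05 and adjusted p from 0.651 to 0.759. DESeq2 called ATP6 (adjusted p 0.0329, against 0.0329 to 0.890 over the 17 alternatives), with 1.23% of all genes called higher in that fit. edgeR and limma-voom called 0 of the 6, where they called 3.98% and 4.54% of the genes tested in either direction. Cow 2 showed the widest step for each transcript, at 0.69 for ATP6 on the log2 scale against 0.27 in cow 3 and 0.34 in cow 4.

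At 72 h the transcripts were lower than before DEX. Each of the 6 was lower in each of 3 cows, as were 9.19% of all genes and 43.2% of the 37 abundant ones, and 5 (all but ATP6) had no overlap between the groups, as had 3.84% of all genes. The log2 fold change was -0.76 for CYTB (SE 0.32, 95% interval -1.44 to -0.07), -0.63 for COX1 (SE 0.27) and -0.61 for COX3 (SE 0.27). For ND1 and ATP6 it was -0.51, and for COX2 -0.36. By limma, 0 of 6 passed, with adjusted p from 0.671 to 0.823 and 3 at an unadjusted p under 0.05, in a comparison in which 0% of genes passed. edgeR on the recovered reads called 3 of 6, where 0.163% of genes were called lower, and DESeq2 called 5 of 6, where 0.133% were. limma-voom called 0 of the 6 and 0% of the genes tested. The difference was widest in cow 4, whose 72 h library has the largest scaling factor of all, which lowers its normalized counts. The log2 ratio of CYTB was -1.16 there against -0.70 in cow 2 and -0.41 in cow 3. As shares of reads, without the factor, these ratios were -0.74, -0.63 and -0.17. Cow 4 was also the widest on that scale for COX1 and COX3. Cow 2 was the widest there for ND1 (-0.46 against -0.26 in cow 4), ATP6 (-0.44 against -0.25) and COX2 (-0.19 against -0.17). Without the 72 h library of cow 4 the median log2 fold change of the 6 was -0.53, against -0.56 with it. That fit keeps the 0 h library of cow 4. With cow 4 left out altogether it was -0.43, and CYTB was at -0.56.

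The 72 h level was also below the 24 h level, by the largest margin of the 6 comparisons. The log2 fold change was -0.82 for COX1 (SE 0.27, 95% interval -1.40 to -0.24) and -0.81 for CYTB (SE 0.32). It was -0.72 for both ATP6 and COX3, -0.67 for ND1 and -0.54 for COX2. All 6 were lower in each of 3 cows, as were 14.2% of all genes and 64.9% of the 37 abundant ones, and 5 (all but ATP6) showed no overlap, as did 8.58% of all genes. By limma across 13525 genes, 0 of 6 passed, against 3.56% of all genes, although 5 had an unadjusted p under 0.05. The smallest adjusted p by limma was 0.133 (COX1) and the largest 0.406 (ATP6).

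The call for 72 h against 24 h differed between the fits. The edgeR and DESeq2 fits, here and above, took the recovered reads and had cow as a fixed term, so they differ from the main fit in both the test and the treatment of cow. With limma restricted to genes averaging at least 10 normalized counts, 5 of 6 were called lower, where 13.4% of the 2922 genes were. edgeR called 6 of 6 lower, where 4.13% of genes were, and DESeq2 called 6 of 6, where 3.12% were. limma-voom called 4 of 6, where 6.52% of 6698 genes were. No member was called with cow as a fixed term in limma (lowest adjusted p 0.059, for COX1), with no term for cow, or with any 1 cow left out. Of all genes, 4.83% were called with the fixed term and 3.39% with no term for cow. With 1 cow left out, 0.793 to 1.36% were called. The fold changes of all 6 were negative in each of the 17 alternatives, both for 72 h against 24 h and for 72 h against 0 h.

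Between 12 h and 72 h the difference was smaller. The log2 fold changes were -0.47 for COX1 and -0.48 for CYTB, both without overlap between the groups (9.04% of all genes were lower with no overlap), and between -0.22 and -0.35 for the other 4. These values rested largely on cow 4, in which the log2 ratio of CYTB was -1.01 against -0.02 in cow 2 and -0.40 in cow 3. Without cow 4 the log2 fold change was -0.19 for COX1 and -0.21 for CYTB, and the median of the 6 was -0.16 against -0.34 with it. In CPM that median was -0.11. The limma model called 0 of 6, against 3.62% of all genes, with 0 at an unadjusted p under 0.05. edgeR called COX1 (adjusted p 0.0250, highest over the alternatives 0.968) and CYTB (adjusted p 0.0196, highest 0.899), where 3.7% of genes were called lower. DESeq2 and limma-voom called 0 of the 6, where they called 5.09% and 10.1% of the genes tested in either direction. COX2 turned to 0.010 in CPM, to 0.15 with quantile normalization and to 0.015 without cow 4, and ATP6 turned to 0.12 with quantile normalization. The test of any difference among the 4 time points gave an adjusted p of 0.279 for COX1 and 0.329 to 0.649 for the other 5 by limma, which called 5.31% of all genes.

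**Figure D2:**
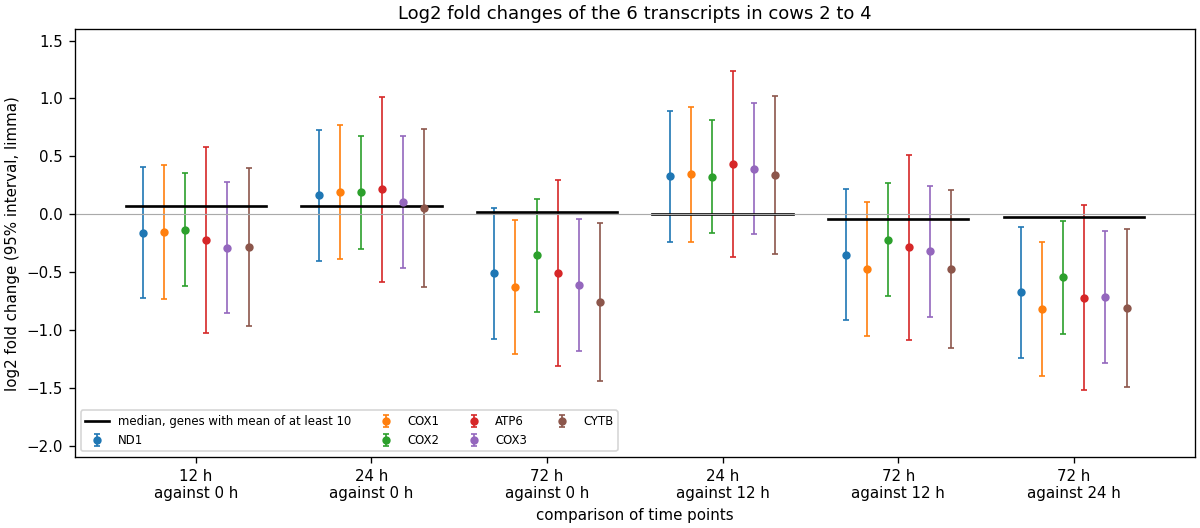
Log2 fold changes (limma, vertical axis) of the 6 transcripts in each of the 6 comparisons of time points, with 95% intervals, for cows 2 to 4. Black lines give the median of all genes that averaged at least 10 normalized counts. The points lie below 0 in the comparisons of 72 h with 0 h and 24 h, and the lowest is -0.82 for COX1 at 72 h against 24 h.

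The size of the 72 h difference depended on the scaling of the libraries, and its direction did not. With the authors' scaling the median log2 fold change of the 6 at 72 h was -0.56 against 0 h and -0.72 against 24 h. In CPM without the scaling factor these medians were -0.32 and -0.44, while the median of all genes that averaged at least 10 normalized counts moved to 0.26 and 0.25. With totals that leave out the 20 most abundant genes they were both -0.54, and with median-ratio scaling -0.57 and -0.71. Quantile normalization gave the smallest values, at -0.10 and -0.21, with each of the 6 transcripts still below 0. The 31 other genes at this level of abundance (1000 or more normalized counts on average) had medians of -0.22 and -0.39 in these comparisons with the authors' scaling. Of these 31 genes, 10 were lower at 72 h than at 0 h in each of 3 cows, and 18 were lower than at 24 h. The rows of 3 of them stand in the table between those of ND1 and CYTB, with medians of -0.47 and -0.63 in these comparisons, and the other 28 had medians of -0.21 and -0.33.

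**Figure D3:**
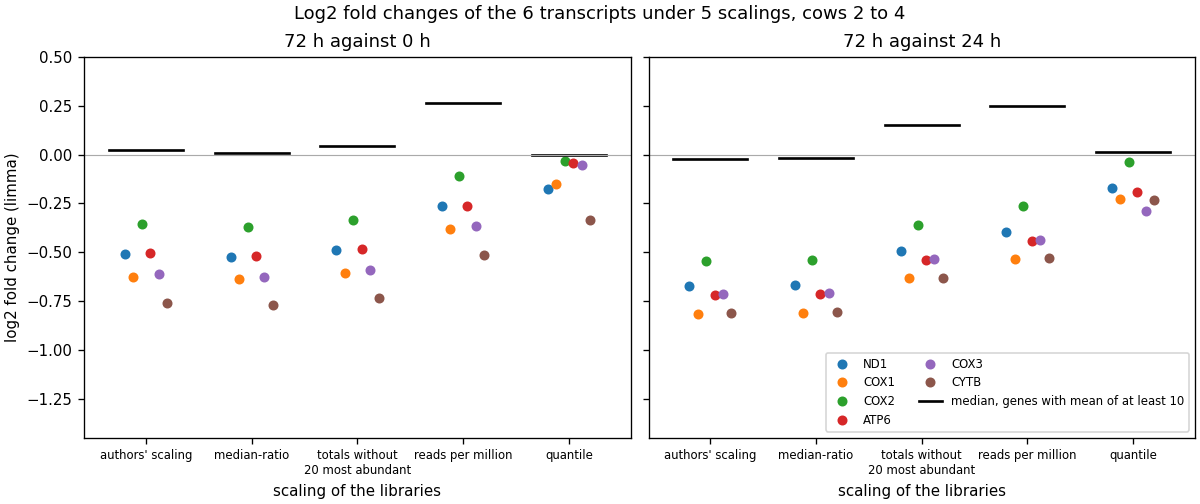
Log2 fold changes (limma, vertical axis) of the 6 transcripts at 72 h against 0 h (left) and against 24 h (right) under 5 scalings of the libraries, cows 2 to 4, with the median of all genes that averaged at least 10 normalized counts as a black line. All points are below 0 and lie nearest to it with quantile normalization, where the medians of the 6 are -0.10 and -0.21.

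The summed share of the 6 transcripts was 3.79 to 6.56% of the gene reads of a library. At 0 h it was 5.86, 4.06 and 5.85% in cows 2, 3 and 4, and at 12 h it was 4.25, 3.91 and 5.50%. At 24 h it was 5.80, 4.68 and 6.56%, and at 72 h 4.25, 3.79 and 4.27%. The 95% Wilson intervals reached at most 0.0342 percentage points to either side, which covers counting error only. The 3 cows spread over more than 1 percentage point at 0, 12 and 24 h and came together at 72 h, below every 24 h value. Cow 3 was the lowest of the 3 cows at each time point.

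As means of cows 2 to 4, the summed share was 5.25% ± 1.04 before DEX (SD, n = 3). It was 4.55% ± 0.840 at 12 h and 5.68% ± 0.947 at 24 h, and ended at 4.10% ± 0.269 by 72 h. The difference from 0 h was -0.702 percentage points at 12 h and 0.426 at 24 h. At 72 h it was -1.15, and no test was made of this sum. The 72 h share was lower than the 0 h share in each of 3 cows, but the groups overlapped, since cow 3 had only 4.06% before DEX. The 12 h difference rested largely on cow 2 and was -0.248 percentage points without it. Leaving out 1 cow at a time, the 72 h difference ran from -0.923 to -1.60 and the 24 h difference from 0.282 to 0.669. The 24 h difference was positive in cows 3 and 4, and in cow 2 the share was 5.80% at 24 h and 5.86% at 0 h.

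Cow 1 gave opposite directions on the 2 scales. Its summed share was 3.84, 4.41 and 5.44% at 0, 12 and 24 h, while its summed normalized count was 48213, 47014 and 43941. Its 0 h library has the smallest scaling factor, by which CPM is divided, and its 24 h library the second largest. With cow 1 included, the summed share differed from 0 h by -0.385 percentage points at 12 h and by 0.718 at 24 h (n = 4).

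**Figure D4:**
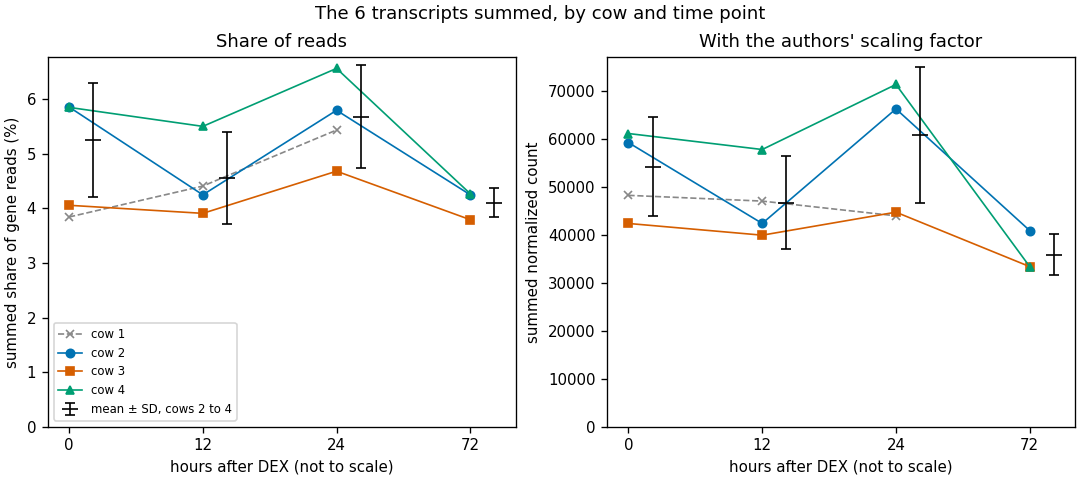
The 6 transcripts summed, as a share of the gene reads of each library (left, %) and as a normalized count with the authors' scaling factor (right), at 0, 12, 24 and 72 h, with 1 line per cow and the mean ± SD of cows 2 to 4. Cows 2 to 4 come together at 72 h at 3.79 to 4.27%, and cow 1 (dashed) goes up on the left and down on the right.

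As shares of reads, single transcripts kept the direction of the 72 h difference with less separation. At 72 h against 24 h all 6 were lower in each of 3 cows (8.07% of all genes), and COX1, COX2, COX3 and CYTB had no overlap (4.27% of all genes). At 72 h against 0 h, 5 of 6 were lower in each of 3 cows (4.6% of all genes), the exception being COX2 in cow 3 at 0.355% against 0.348%. COX1 alone had no overlap there, as had 1.56% of all genes, with 0.962, 0.873 and 1.046% in cows 2, 3 and 4 at 0 h and 0.714, 0.817 and 0.681% at 72 h.

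The way the reads divided among the 6 transcripts differed between cows. ATP6 took 34.1 to 35.9% of the reads of the 6 in the 4 libraries of cow 2, and 23.0 to 27.9% in the other 11 libraries. COX1 took 21.0 to 21.6% in the 4 libraries of cow 3 and 15.9 to 18.9% in the other 11. Each of these divisions was that of 1 animal, so no test was made. A high share of 1 transcript lowers the shares of the others, since they add to the whole. The mean ATP6 share ranged over 11 percentage points among the 4 cows and over 1.42 among the 4 time points of cows 2 to 4. For COX1 these ranges were 4.84 and 1.25, for CYTB 5.33 and 2.52, for ND1 2.56 and 0.634, for COX3 2.24 and 0.676, and for COX2 1.5 and 1.24. With ATP6 left out of the sum, the cow means still ranged further than the time point means for COX1 (6.01 against 1.32 percentage points), CYTB (4.99 against 2.95) and ND1 (1.56 against 1.19). The COX1 share itself was then 27.3 to 28.7% in cow 3 and 24.9 to 27.8% in cow 2, so cow 3 no longer stood apart from cow 2. For COX3 the ranges were then alike, at 0.958 and 0.931. For COX2 the order turned, with 1.5 between cows and 1.95 between time points. COX2 took 12.0 to 12.3% of the reads of the 5 at 72 h in cows 2 to 4, and 9.54 to 11.3% in their other 9 libraries.

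The ATP6 excess of cow 2 was plain beside the neighbouring gene. Cow 2 had 2.72 to 2.98 ATP6 reads for each COX3 read, while cow 1 had 1.65 to 1.83, cow 3 had 1.65 to 1.78 and cow 4 had 1.65 to 2.00. These are ratios of tag counts in 1 library and are not divided by length. Nuclear copies of mitochondrial DNA can share reads with these genes, which was not tested.

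The 72 h library of cow 4 stood apart from the other 3 libraries of its cow in this division as well. ATP6 took 27.9% of the reads of the 6 there against 24.2 to 25% in the others, and ND1 took 13.5% against 11.8 to 12.1%. CYTB took 19.9% against 23.1 to 24.3%, and COX1 took 16.0% against 17.9 to 18.9%. Counting error on any of these shares was at most 0.294 percentage points (to either side, 95% Wilson interval).

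**Figure D5:**
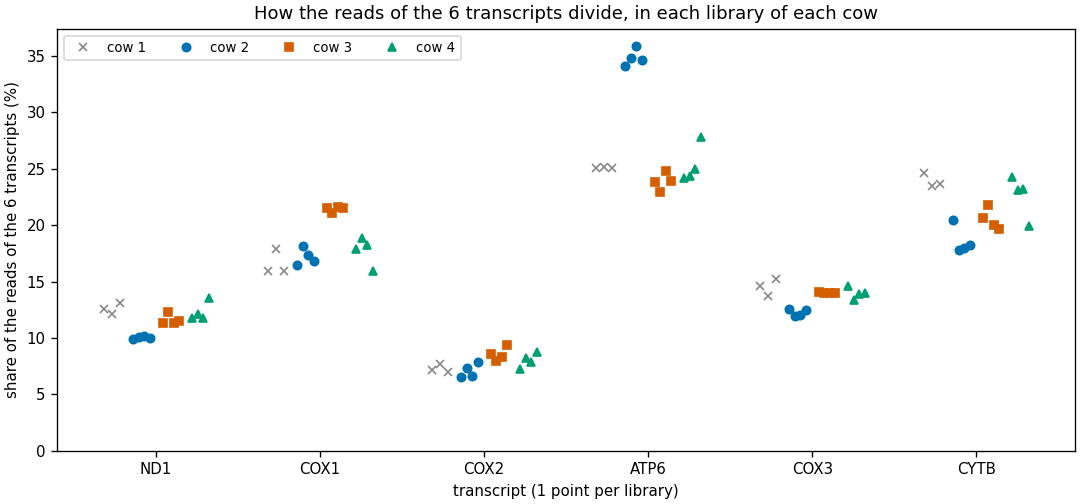
Share of the reads of the 6 transcripts that each of them took (vertical axis, %, from 0), with 1 point per library, ordered by time within each cow. The 4 points of cow 2 lie at 34.1 to 35.9% for ATP6, above the 23.0 to 27.9% of all other libraries, and those of cow 3 lie highest for COX1.

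Over the 15 libraries, the 10 pairs of transcripts without ATP6 had Pearson correlations of log2 normalized counts between 0.772 and 0.984, and the 5 pairs with ATP6 between 0.607 and 0.670. With the values centred on each cow, the pairs with ATP6 reached 0.949 to 0.980 and the others 0.913 to 0.985. So ATP6 followed the other 5 over time within a cow, and departed from them in the level of cow 2. These correlations describe libraries that share their cows, depth and scaling factors, and carry no test.

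Among the 2916 other genes averaging at least 10 normalized counts, 3 followed the summed count of the 6 most closely, by the Pearson correlation of log2 values over the 15 libraries. The closest was ENSBTAG00000043568 (r 0.953, mean 10364 normalized counts), with 11420 ± 3433, 9437 ± 3100, 13208 ± 3799 and 7142 ± 1359 normalized counts at 0, 12, 24 and 72 h (SD, n = 3). The next was ENSBTAG00000000672 (r 0.913), a low gene with a mean of 10.4 normalized counts, at 17.4 ± 8.32 at 24 h and 5.24 ± 1.13 at 72 h. The third was ENSBTAG00000043571 (r 0.881, mean 2923), at 3500 ± 362 at 24 h and 2304 ± 299 at 72 h. All 3 had their highest mean at 24 h and their lowest at 72 h, as the 6 transcripts had. They were picked for following the 6 over these same libraries, so this likeness is not a separate result. The median correlation over the 2916 genes was 0.00873. The sources used here do not name these 3 genes. The rows of ENSBTAG00000043568 and ENSBTAG00000043571 stand in the table between those of ND1 and CYTB, the first and last of the 6, and that of ENSBTAG00000000672 does not.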

How the data were processed

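Biopsy RNA of 15 libraries was sequenced as 3′ tags. The authors trimmed reads with HTStream and aligned them with STAR 2.6.0c to the UMD3.1 genome with Ensembl annotation. They deposited normalized counts, a signal equal to CPM divided by a scaling factor. Reads that could align to several places were not part of the uniquely aligned counts that the study describes, which can lower genes with near-identical copies. Whole reads were recovered from 100% of values (tolerance 0.01), and TMM factors computed from them matched the deposited ones.

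The test was limma 3.58.1 (R 4.3.3; lmFit, eBayes with trend) applied to the 12 libraries from cows 2 to 4 as log2(normalized count + 0.5), fitted on time point, with cow as random block through duplicateCorrelation, and Benjamini-Hochberg adjustment over 13525 genes at 0.05. This scale understates changes of low genes. The study's methods used limma-voom with a correlation within cows, which was run as an alternative. Libraries with the same number come from the same cow, and their deviations from time point means correlated by more than 0.1 in 18 of 18 pairs (median 0.370, 2922 genes), against a consensus correlation of 0.0179 in the fit. Alternatives were edgeR 4.0.16 and DESeq2 1.42.0 on recovered reads with cow as a fixed term, limma-voom on recovered reads, other scalings, pseudocounts, a filter, cow as a fixed term or absent, cow 1 added and each cow left out. Only the limma fit was tried on reads simulated with known changes, for 72 h against 0 h and with no difference between cows. The edgeR, DESeq2 and limma-voom fits were not tried in this way. Named genes were the 6 transcripts and the 3 genes that correlated best with their sum. The transcripts and lists were chosen with earlier results of these data known. Lists of nuclear oxidative phosphorylation genes and cell type markers were not used here, because 0 identifiers matched a name.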

Additional observations from a re-analysis of the deposited data

Results flagged for a closer look

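At 0 h, ATP6 took 34.1% of the reads of the 6 transcripts in cow 2, and at 24 h it took 35.9% there. Both values lay far above those of the other 3 cows at the same time point, with a gap to the nearest cow of 0.878 and 0.975 of the whole range of the 4 cows. At 12 h, ND1 took 10.0% in cow 2, below the other 3 cows by a gap of 0.907 of the range. These shares add to the whole in each library, so the ND1 value is not independent of the high ATP6 share of cow 2. Without ATP6 in the sum, ND1 took 15.4% in cow 2 and 16.0 to 16.1% in the other 3 cows, a gap of 0.761 of the range, which is not past the limit. The 3 values with all 6 in the sum were past Dixon's 95% limit among 39 groups of 4 cows examined, in which chance gives about 1.95 (about 1 in 20).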

How the results depend on the processing

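Over 17 alternatives, 570 of 612 fold changes of single transcripts kept their direction and side of the threshold, 32 passed the threshold and 10 changed sign, none of them past the threshold. The sign changed for COX2 at 72 h against 12 h in CPM (0.010), with quantile normalization (0.15) and without cow 4 (0.015; -0.36 to 0.015 with each cow left out in turn), for ATP6 in that comparison with quantile normalization (0.12), for COX3 at 12 h against 0 h with quantile normalization (0.012) and at 24 h against 0 h with totals without the 20 most abundant genes (-0.056), for ND1 at 24 h against 0 h with quantile normalization (-0.0067), and for CYTB in that comparison with cow 1 added (-0.0063), quantile normalization (-0.10) and the totals of all but the 20 most abundant genes (-0.11).

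The number of transcripts called, 0 of 6 in each comparison, became 5 at 72 h against 24 h with the filter at a mean of 10, 6 with edgeR, 6 with DESeq2 and 4 with limma-voom. The edgeR and DESeq2 fits also had cow as a fixed block. It became 3 (edgeR) and 5 (DESeq2) at 72 h against 0 h, 2 (edgeR) at 72 h against 12 h, and 1 (DESeq2) at 24 h against 12 h. For any difference among the time points it became 2 with the filter, where 786 of 2922 genes were called. It became 6 with edgeR (1552 of 13525 genes called), 6 with DESeq2 (1013 of 13525) and 2 with limma-voom (857 of 6698). Which of the test and the block made the difference was not tested beyond limma with a fixed block, below. With cow as a fixed replicate block or no block in limma, and with each cow left out, the number stayed 0 in all 6 comparisons.

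The summed share moved with its denominator. With the 20 most abundant genes, which include the 6 themselves, left out of the denominator, it became a ratio to other reads and not a share. In percent of those reads, the differences from 0 h were -5.56, -0.0622 and -9.55 at 12, 24 and 72 h. The sign at 24 h thus turned from that of the share of all gene reads (0.426 percentage points). Without the 2 most abundant genes the differences were 0.963 percentage points at 24 h and -2.51 at 72 h.

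With 3 cows, 1 QTR per time point and no untreated cow, the 95% intervals of the fold changes reached 0.49 to 0.80 to either side.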
